A study of Mus musculus with 6 samples.

Results

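The antioxidant and NRF2 target genes are 39 genes that make and use glutathione, run the thioredoxin system, supply NADPH, remove superoxide and peroxide, break down haem or detoxify reactive chemicals, together with the regulator NRF2 (gene Nfe2l2) and its inhibitor KEAP1 (gene Keap1). They were taken by name from a list, not by their values, and all 39 had a probe that could be tested, among 12472 genes tested of 20018 genes with a named probe. Total RNA of cultured lung fibroblasts was measured on one-colour Agilent microarrays, 3 from Mmp19 knockout (KO) mice and 3 from wild-type (WT) mice. Mmp19 encodes a matrix metalloproteinase, a secreted enzyme that cuts extracellular matrix proteins. All mice of both groups, labelled female and aged 11 weeks, had received 0.08 units of bleomycin, a drug used to bring on lung fibrosis, through the trachea. Lung fibroblasts were taken 21 days later and kept in culture for 72 hours, so there is no group without bleomycin, and the 3 arrays a group are said to come from independent experiments. How the Mmp19 allele was made and the strain of the mice are not given in the sources used here.

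NRF2 is a transcription factor that KEAP1 holds in the cytoplasm and passes to the proteasome. Oxidants and electrophiles modify KEAP1, NRF2 then builds up in the nucleus, pairs with small MAF proteins and binds antioxidant response elements near its target genes, so NRF2 is regulated mainly as a protein and less through its mRNA. In fibrotic lung, fibroblasts are exposed to oxidants, and the lung is known for a large glutathione pool and for extracellular superoxide dismutase in its matrix.

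The value of a gene is given as log2 signal, with 0 at the 75th percentile of the array, so a level can be compared between arrays for 1 probe but not between genes. Differences are KO minus WT on the log2 scale with the standard error of the limma fit, and adjusted p is Benjamini-Hochberg over all probes tested, with a threshold of 0.05. On the KO arrays, the 75th percentile of signal lay between 138 and 328 and 43.1% to 52.5% of spots were well above background, against 190 to 290 and 44.6% to 54.5% on the WT arrays. The Mmp19 probe was not well above background on any KO array and was so on all 3 WT arrays, with -5.23, -6.51 and -6.05 in KO against -0.55, -2.69 and -0.69 in WT, at least 6.31-fold lower in KO (adjusted p = 0.0160); whether the probe lies in the deleted part is not known here. Xist, an RNA of female cells, was well above background on 3 of 3 KO and 0 of 3 WT arrays, and the Y-linked Eif2s3y and Ddx3y were above it on all 6, with differences of -3.21 (adjusted p = 0.112) and -2.47 (adjusted p = 0.139), which goes against the label female. WT replicate 2 stood apart, with correlations of 0.944 and 0.950 to the other WT arrays, which correlated at 0.981 with each other, and it was the lowest of the 6 arrays for 18 of the 39 genes. Of 12 fibroblast markers tested, Col1a1 and Col1a2 were called, both higher in KO, beside 3.3% of all genes called higher. The difference was positive for 10 and negative for 2. Lum (4.15, adjusted p = 0.0765) and Col3a1 (3.32, adjusted p = 0.0621) were higher in KO without overlap, and Dcn differed by -0.75 with overlap (adjusted p = 0.799). The summed signal of the list was 2584 to 2687 times the 75th percentile in KO against 1294 to 2450 times in WT. Of 10 tested markers of mesothelium, the lining of the lung surface, 6 were called, all higher in KO, beside 3.3% of all genes called higher. The difference was positive for 9 of the 10, beside 56.3% of all genes. The groups did not overlap for 8, beside 31%. The summed signal of the list was 51.3 to 146 in KO and 2.79 to 19.4 in WT, Calb2 being above background on 0 arrays. No macrophage, epithelial or endothelial marker was called (8, 12 and 7 tested). Their summed signals in KO and WT were 49.2 to 111 against 60.7 to 74.4, 60.8 to 70.3 against 45.9 to 57.7, and 5.51 to 6.41 against 4.65 to 6.61. Itgax, Mrc1, Epcam, Nkx2-1, Muc1, Tek, Emcn, Erg and Tie1 were above background on 0 arrays. Adgre1, Ptprc, Lyz2, Tyrobp, C1qa, C1qc, Krt5, Krt8 and Foxj1 were well above it on some arrays only. Apart from Siglecf, given below, the other markers of these lists with a probe were well above it on all 6. Mean log2 signals in KO and WT were 4.95 and 4.97 for epithelial Sftpc, 5.78 and 5.71 for macrophage Itgam, and 1.58 and 1.77 for endothelial Kdr. Differences were positive for 6 macrophage, 2 epithelial and 3 endothelial markers and negative for 2, 10 and 4, beside 56.3% positive over all genes. Macrophage Lyz2 (1.02, adjusted p = 0.135) and Fcer1g (0.72, adjusted p = 0.140) and endothelial Esam (1.15, adjusted p = 0.109) were higher in KO without overlap. The macrophage marker Siglecf was above background on 0 KO and 2 WT arrays and was not tested. The epithelial keratin Krt18 was higher in KO without overlap of the groups, by 2.55 ± 0.70 (adjusted p = 0.094), and passed with slide as a block (adjusted p = 0.0468). Hprt, an X-linked enzyme of purine salvage often used as a reference gene, had 5.46, 6.08 and 5.62 in KO, against -0.78, -0.79 and -0.84 in WT, a difference of 6.52 (adjusted p = 0.000469; 0.0246 with slide as a block). In such bulk cultures, a different mix of cells and a different amount of RNA per cell cannot be told apart, and the part that the mesothelial markers, Krt18, Xist, the Y-linked genes and the Hprt difference have in the results that follow was not tested.

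Most antioxidant genes had somewhat higher signal in KO fibroblasts, a few passed the test, and the best-known NRF2 target, Nqo1, went the other way. Gclm, Gsta4, Gstm2, Gstm5 and Osgin1 rose and Nqo1 fell, which made 6 of 39 genes called (15.4%), beside 4.79% of all genes tested (4.64% of all probes). The 5 that rose stand beside 3.3% of all genes called higher, and the 1 that fell beside 1.49% called lower. The groups did not overlap for 18 genes (46.2%), beside 31% of all genes. Of these, 15 were higher in KO, beside 21.2% of all genes, and 3 were lower, beside 9.82%. Without adjustment, 15 genes had p below 0.05, beside 21.8% of all genes. In 14 of these KO was higher, beside 14.4% of all genes, and in 1 lower, beside 7.38%. The difference was positive for 29 genes and negative for 10 (74.4% positive), against 56.3% positive over all genes tested, and the median difference was 0.29 against 0.08 over all genes. The size of the difference was at least 1 for 8 genes and under 1 for 31. Every member was well above background on all 6 arrays, so none entered through the group in which it was high. A single probe stood for 28 genes, and of the 11 with several tested probes 10 had all probes on 1 side of 0, Prdx6 being the exception.

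**Figure D1:**
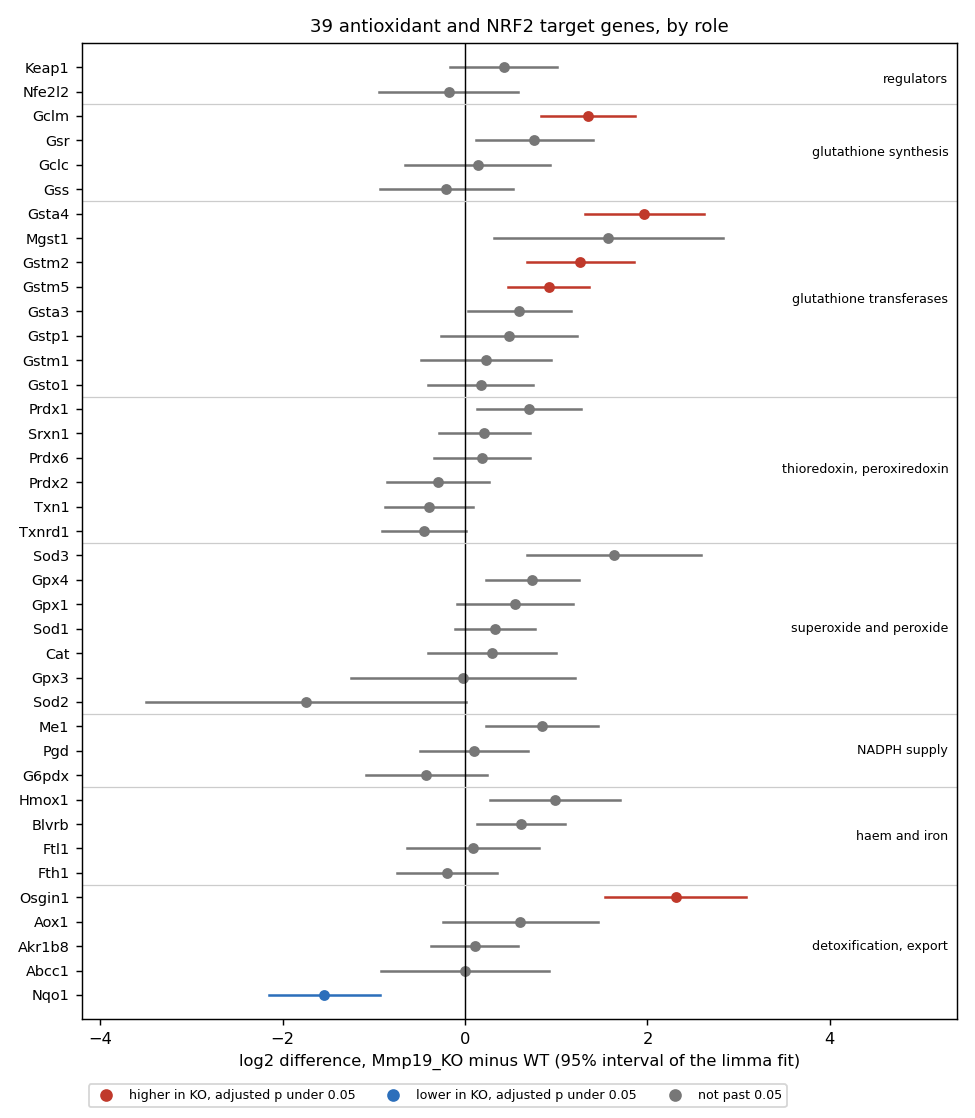
Log2 difference, KO minus WT, of the 39 genes in order of role (point, with the 95% interval of the limma fit; 3 arrays a group). Red points are the 5 genes past the threshold that were higher in KO, blue is Nqo1, the 1 that was lower, and grey genes did not pass; Sod2 has the widest interval.

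**Figure D2:**
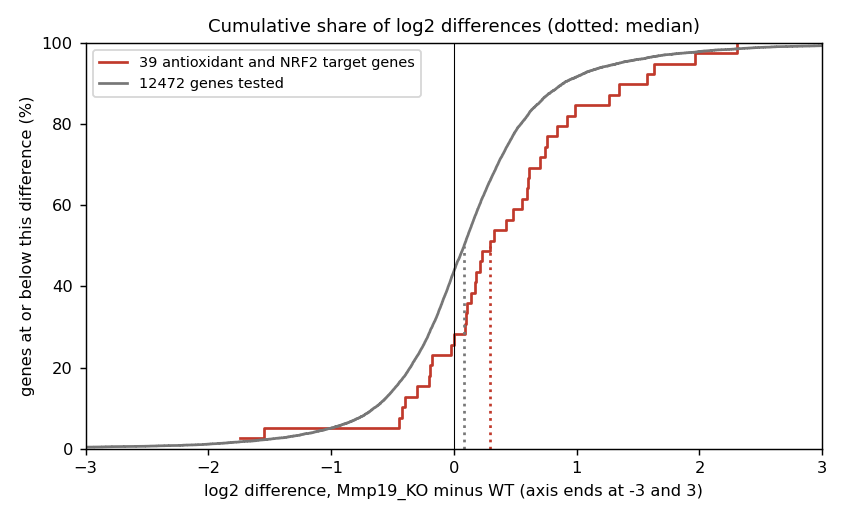
Share of genes (%) at or below each log2 difference, KO minus WT, for the 39 antioxidant and NRF2 target genes (red) and all 12472 genes tested (grey), with dotted lines at the medians of 0.29 and 0.08. The red curve lies to the right of the grey curve around both medians and to the left of it at the far ends, where Sod2 and Nqo1 lie on one side and Osgin1 on the other.

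The promoters of 4 called genes are shown, of which 3 hold a motif known to be bound by NRF2 or by related factors. The gene that fell, Nqo1, holds none in this window. Gstm2, which rose, holds none either and is not shown, and Gsta4 had no window. The 4 were picked by their motifs, so no link between motif and direction can be read from them. The sequences are from RefSeq (GRCm38.p6), run 5′ to 3′ on the strand of the gene, and cover 250 bases before to 50 after the transcript start. Capitals mark TGACNNNGC, the core of the antioxidant response element, or TGACTCA, the AP-1 site, found on either strand. They are Gclm at chr3:122245307-122245606 (plus strand), Gstm5 at chr3:107895604-107895903 (plus strand), Osgin1 at chr8:119436897-119437196 (plus strand) and Nqo1 at chr8:107403156-107403455 (minus strand).
Gclm: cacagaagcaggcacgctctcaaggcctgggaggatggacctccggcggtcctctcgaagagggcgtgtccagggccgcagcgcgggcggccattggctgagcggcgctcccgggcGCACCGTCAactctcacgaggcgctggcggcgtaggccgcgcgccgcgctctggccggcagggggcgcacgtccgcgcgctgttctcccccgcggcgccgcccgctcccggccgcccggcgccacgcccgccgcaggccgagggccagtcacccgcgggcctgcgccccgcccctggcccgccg
Gstm5: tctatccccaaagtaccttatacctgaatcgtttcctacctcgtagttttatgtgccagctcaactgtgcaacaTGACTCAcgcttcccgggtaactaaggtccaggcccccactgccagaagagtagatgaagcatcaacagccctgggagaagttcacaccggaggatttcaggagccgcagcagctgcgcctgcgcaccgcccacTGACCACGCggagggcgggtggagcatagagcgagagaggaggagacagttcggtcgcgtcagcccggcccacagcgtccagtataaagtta
Osgin1: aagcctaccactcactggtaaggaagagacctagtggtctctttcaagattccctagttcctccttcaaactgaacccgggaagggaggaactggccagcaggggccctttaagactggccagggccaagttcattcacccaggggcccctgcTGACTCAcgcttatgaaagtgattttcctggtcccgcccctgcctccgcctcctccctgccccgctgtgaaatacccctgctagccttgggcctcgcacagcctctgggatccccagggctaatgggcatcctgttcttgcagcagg
Nqo1: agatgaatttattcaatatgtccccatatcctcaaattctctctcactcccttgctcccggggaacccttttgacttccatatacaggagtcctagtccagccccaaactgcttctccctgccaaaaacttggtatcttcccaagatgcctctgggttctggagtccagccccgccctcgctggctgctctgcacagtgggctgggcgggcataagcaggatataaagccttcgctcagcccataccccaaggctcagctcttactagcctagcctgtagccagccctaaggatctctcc

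In Gclm the element core lies from -134 to -126 relative to the start, on the opposite strand, as GCACCGTCA. Gstm5 holds a core at -42 to -34, TGACCACGC, and an AP-1 site at -176 to -170. Osgin1 holds an AP-1 site at -97 to -91 and no core. Neither motif is in the windows of Nqo1 and Gstm2, which says only that these letters are not in those 300 bases. The longest run of letters shared by Osgin1, from -97 to -86, and Gstm5, from -176 to -165, is TGACTCACGCTT. These 12 letters occur in 3 of the 32851 windows. The run was noticed after the values and sequences had been seen, and only this pair was searched. A run chosen as the longest is rare in other windows, so this count carries no weight. A window was found for 32 of the 39 genes, not for Gsta4. The element core was in the windows of 12 of those 32 genes (37.5%), against 14% of 27025 genes with a window. They were G6pdx, Gclm, Gsta3, Gstm5, Me1, Mgst1, Nfe2l2, Pgd, Prdx1, Sod1, Srxn1 and Txnrd1, of which only Gclm and Gstm5 were called. The AP-1 site was in 7 of 32 (21.9%) against 5.95% of genes, and it overlapped an element core in Me1 and Prdx1. A match is a description of the letters and shows no binding.

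The mRNAs of the regulators did not pass the test. Nfe2l2, which encodes NRF2, had 4.12, 4.47 and 4.33 in KO, against 4.95, 3.83 and 4.69 in WT. The KO values lay inside the WT range, and the difference was -0.18 ± 0.32 (adjusted p = 0.791), with a 95% interval of -0.94 to 0.58. Keap1 had 3.49, 3.26 and 3.74 in KO, against 3.23, 2.72 and 3.28 in WT. Its lowest KO array lay under the highest WT array, and the difference was 0.42 ± 0.25 (adjusted p = 0.374), with the same sign on all 3 slides.

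In glutathione synthesis, the modifier subunit of the first enzyme rose while its catalytic subunit did not pass the test. Glutamate-cysteine ligase, which joins glutamate to cysteine, is made of GCLC, which does the chemistry, and GCLM, which makes it more efficient. Gclm had 0.73, 0.61 and 1.0 in KO, against -0.78, -0.57 and -0.36 in WT. All 3 KO arrays were above all 3 WT arrays, with means of 0.78 ± 0.20 in KO and -0.57 ± 0.21 in WT (SD, n = 3 each), a difference of 1.35 ± 0.22, or 2.55-fold (adjusted p = 0.0241). Blocking on slide gave an adjusted p of 0.0623, and the within-slide differences were 1.51, 1.18 and 1.36. The call was lost without any 1 of the KO arrays and without WT replicate 1 or 3 (adjusted p from 0.0537 to 0.134), and held without WT replicate 2 (0.0300).

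Gclc had 3.02, 2.10 and 2.87 in KO, against 2.69, 2.04 and 2.84 in WT. These overlapped almost completely, with a difference of 0.14 ± 0.33 (adjusted p = 0.846) and an interval of -0.65 to 0.93. The sign of Gclc was negative without KO replicate 1 (-0.04) and without WT replicate 2 (-0.10). Gsr, the reductase that returns oxidised glutathione to its reduced form, differed by 0.76 ± 0.27 with groups that did not overlap (adjusted p = 0.172). Gss, the synthetase of the second step, differed by -0.21 ± 0.31. Of these 4 genes 1 rose, 0 fell, and the median difference was 0.45, beside 3.3% called higher, 1.49% called lower and a median of 0.08 over all genes.

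Glutathione transferases, which attach glutathione to electrophiles, gave 3 of the 5 genes that rose. All 8 transferases among the members had a positive difference, 3 were called higher, 0 lower, and the median was 0.76, beside 56.3% positive, 3.3% called higher, 1.49% called lower and a median of 0.08 over all genes. Gsta4, whose enzyme is known for removing the lipid peroxidation product 4-hydroxynonenal, had -0.90, -0.06 and -0.31 in KO, against -2.62, -2.24 and -2.31 in WT. The groups were far apart, with means of -0.42 ± 0.43 in KO and -2.39 ± 0.20 in WT (SD, n = 3 each), a difference of 1.97 ± 0.27, or 3.91-fold (adjusted p = 0.0173). It also passed with slide as a block (adjusted p = 0.0397), and the slides gave 1.72, 2.18 and 2.0. Its call was lost without KO replicate 3, WT replicate 1 or WT replicate 3, with adjusted p from 0.0542 to 0.0993.

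Gstm2, a cytosolic mu-class transferase, had 5.79, 5.97 and 5.70 in KO, against 4.87, 4.14 and 4.66 in WT. Every KO array lay above every WT array, and the difference was 1.26 ± 0.25, or 2.40-fold (adjusted p = 0.0409). Its other tested probes differed by 1.78 (adjusted p = 0.0445) and 1.26 (adjusted p = 0.0643), so 2 of 3 passed and all 3 were higher in KO. Gstm5, another mu-class enzyme, had 4.01, 4.07 and 4.08 in KO, against 3.02, 3.11 and 3.28 in WT. Its KO arrays were close together and all above the WT arrays, and the difference was 0.92 ± 0.19, or 1.89-fold (adjusted p = 0.0441). With slide as a block neither passed (adjusted p = 0.102 for Gstm2 and 0.10 for Gstm5). When arrays were left out singly, both calls were lost in 5 of 6 fits, all but the one without WT replicate 2, with adjusted p from 0.0623 to 0.159 for Gstm2 and from 0.0978 to 0.209 for Gstm5. Mu-class genes are close copies of each other, so a probe may take signal from a neighbour and the single mu-class values are uncertain to that degree.

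Mgst1, a membrane-bound transferase and peroxidase, had 5.10, 5.82 and 5.44 in KO, against 4.69, 2.66 and 4.29 in WT. The groups did not overlap, but WT replicate 2 was far below the other WT arrays, and the difference of 1.57 ± 0.53 did not pass (adjusted p = 0.155). The slides gave 0.40, 3.16 and 1.14. The other transferases among the members had differences of 0.59 for Gsta3, 0.48 for Gstp1, 0.23 for Gstm1 and 0.17 for Gsto1, all with adjusted p over 0.05.

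The wider pathway list held 14 further transferases, a subset singled out after its values were seen. Of these 12 were tested, 10 had a positive difference, 3 rose, 0 fell, and the median was 0.85, beside 3.3% of all genes called higher, 56.3% positive and a median of 0.08. Gstk1, the mitochondrial and peroxisomal kappa-class enzyme, had 1.74, 1.93 and 1.73 in KO, against -0.23, 0.03 and -0.03 in WT. Its groups were tightly clustered and wholly apart, with a difference of 1.88 ± 0.19 (adjusted p = 0.00656; 0.0377 with slide as a block). Gstm4 differed by 1.32 ± 0.21 (adjusted p = 0.0236) and Gstt2 by 0.97 ± 0.19 (adjusted p = 0.0415), and both calls were lost when slide was blocked (0.0729 and 0.0892). Over the 20 tested transferases, of which those 12 were picked with values known, 18 had a positive difference (56.3% over all genes), 6 rose (3.3% over all genes), 0 fell (1.49%), and the median was 0.82 (0.08). All 7 mu-class genes tested had a positive difference (56.3% over all genes), and 3 of them were called, all higher (3.3%). As mu-class probes may take signal from neighbouring genes, these counts and those over the 20 may partly repeat the same signal.

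**Figure D3:**
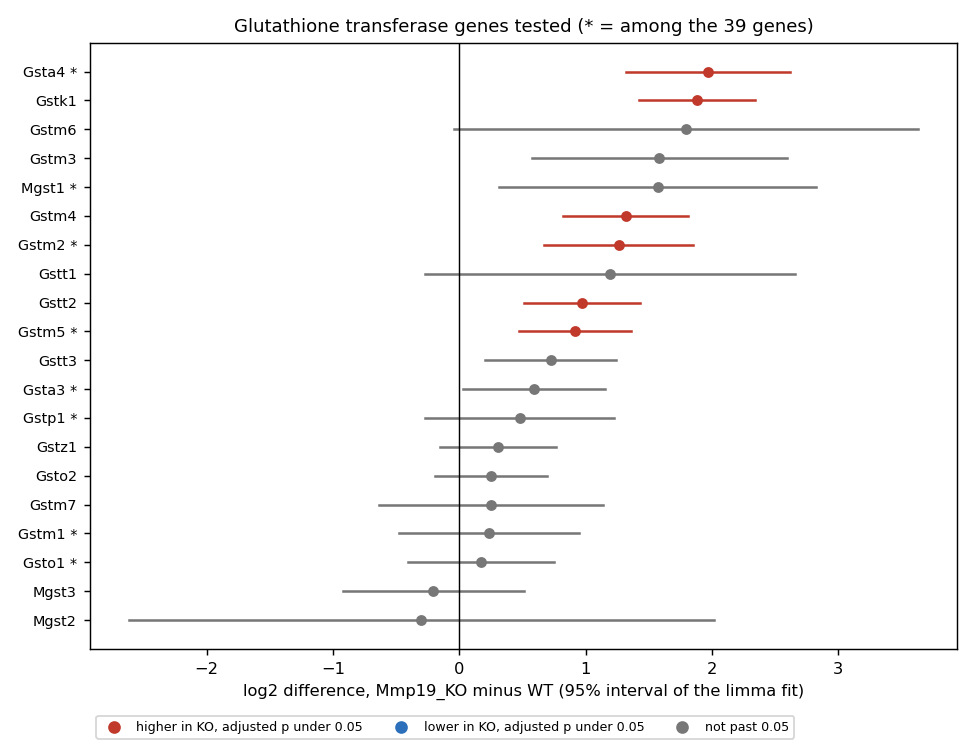
Log2 difference, KO minus WT, of the 20 glutathione transferase genes tested (point, with the 95% interval of the limma fit), a star marking the 8 among the 39 genes. The 6 red genes passed the threshold and were higher in KO, 18 of the 20 points lie right of 0, and Mgst3 and Mgst2 lie left of it.

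The thioredoxin system, which reduces protein disulphides and serves the peroxiredoxins, had no gene past the threshold. Of its 6 genes 3 had a positive and 3 a negative difference, with a median of -0.06, beside 56.3% positive, 4.79% called and a median of 0.08 over all genes. Txnrd1, the cytosolic thioredoxin reductase and a usual NRF2 target, had 5.3, 5.54 and 5.28 in KO, against 5.69, 5.93 and 5.85 in WT. The KO arrays all lay under the WT arrays, but the difference of -0.45 ± 0.20 did not pass (adjusted p = 0.248). Its substrate thioredoxin, Txn1, also had groups that did not overlap and a difference of -0.40 ± 0.20 (adjusted p = 0.316). Srxn1, sulfiredoxin, which repairs over-oxidised peroxiredoxins, had 4.97, 5.14 and 4.70 in KO, against 4.58, 4.79 and 4.81 in WT. These overlapped, with a difference of 0.21 ± 0.21 (adjusted p = 0.603). Among the peroxiredoxins, which reduce peroxides, Prdx1 differed by 0.70 with groups that did not overlap (adjusted p = 0.159), Prdx6 by 0.18 and Prdx2 by -0.30.

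Of the 7 genes that remove superoxide and peroxide 5 had a positive difference, beside 56.3% of all genes, and the median was 0.33. The threshold was passed by 0, and 2 had an unadjusted p below 0.05, beside 21.8% of all genes. Sod3, the secreted superoxide dismutase of the lung matrix, had 4.98, 6.61 and 5.89 in KO, against 4.29, 4.18 and 4.10 in WT. The WT arrays were close together and the KO arrays spread above them, with a difference of 1.63 ± 0.40, or 3.1-fold, that did not pass (adjusted p = 0.0747). Sod2, the mitochondrial form, had the most negative difference of the 39 genes, -1.75 ± 0.74, and an adjusted p of 0.238. It had 3.73, 5.85 and 5.47 in KO, against 7.68, 5.43 and 7.17 in WT. WT replicate 2 lay below 2 KO arrays, and the slides gave -3.95, 0.41 and -1.70. The cytosolic Sod1 differed by 0.33 ± 0.19 without overlap of the groups (adjusted p = 0.364). Gpx4, the peroxidase of membrane lipids, differed by 0.74 ± 0.21, also without overlap (adjusted p = 0.109). Gpx1 differed by 0.55, catalase (Cat) by 0.29 and the secreted Gpx3 by -0.02, with overlapping groups. A second, dimmer Cat probe differed by 0.76 without overlap (adjusted p = 0.192).

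No gene of NADPH supply passed the threshold among the 3 members. Me1, the cytosolic malic enzyme, had groups that did not overlap, with a difference of 0.84 ± 0.26 (adjusted p = 0.126). Its other tested probes differed by 1.20 (adjusted p = 0.0621) and 0.99 (adjusted p = 0.0634). The pentose phosphate enzymes differed by 0.10 for Pgd and -0.43 for G6pdx (adjusted p = 0.428), both with overlapping groups. G6pdx is the 1 X-linked gene among the 39, and the part of the sex-linked differences in its value was not tested.

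Of the 4 genes of haem and iron handling 0 passed the threshold, and the median was 0.35, beside 4.79% called and a median of 0.08 over all genes. Hmox1, heme oxygenase 1, which opens the haem ring, had 7.37, 6.88 and 7.14 in KO, against 6.41, 5.58 and 6.44 in WT. All KO arrays were above all WT arrays, and the difference of 0.98 ± 0.30, or 1.98-fold, did not pass (adjusted p = 0.122). Blvrb, a biliverdin reductase, differed by 0.61 ± 0.20 with groups that did not overlap (adjusted p = 0.151). The ferritin chains, which store iron, had overlapping groups and differed by 0.09 for Ftl1 and -0.20 for Fth1.

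The detoxification and export genes held the called genes of largest rise and of fall. Osgin1, a growth inhibitor induced by oxidative stress, had 3.42, 3.07 and 3.17 in KO, against 1.39, 0.24 and 1.11 in WT. Each KO array was well above the highest WT array, with means of 3.22 ± 0.18 in KO and 0.91 ± 0.60 in WT (SD, n = 3 each), a difference of 2.31 ± 0.33, or 4.95-fold (adjusted p = 0.0177). It passed with slide as a block (adjusted p = 0.0431), and the slides gave 2.03, 2.82 and 2.07. The call was lost without KO replicate 1, KO replicate 3 or WT replicate 3, with adjusted p from 0.0511 to 0.0955.

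Nqo1, the quinone reductase whose induction is a standard readout of NRF2, had 1.11, 1.35 and 0.90 in KO, against 2.48, 2.43 and 3.09 in WT. Every KO array was below every WT array, with means of 1.12 ± 0.23 in KO and 2.67 ± 0.37 in WT (SD, n = 3 each), a difference of -1.54 ± 0.26 and a KO to WT ratio of 0.343 (adjusted p = 0.0269). With slide as a block it missed the threshold (adjusted p = 0.0859), and the slides gave -1.37, -1.07 and -2.19. When arrays were left out singly, 5 of 6 fits lost the call (adjusted p from 0.0551 to 0.138), and it held without WT replicate 2 (0.0248). The other detoxification genes had overlapping groups, with differences of 0.61 for the aldehyde oxidase Aox1, 0.10 for the aldo-keto reductase Akr1b8 and 0.00 for the exporter of glutathione conjugates Abcc1.

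**Figure D4:**
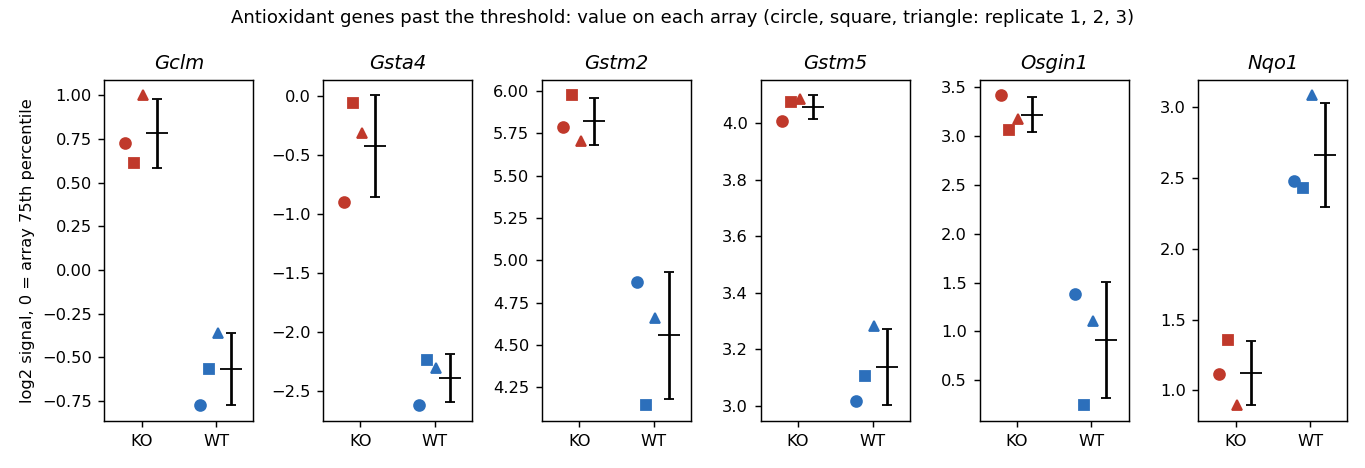
Log2 signal of the 6 called genes on each array, with 0 at the array's 75th percentile and a separate vertical scale for each gene (KO red, left; WT blue, right; horizontal line and bar, mean and SD of 3 arrays). In each panel the groups do not overlap, KO being above WT in 5 and below it for Nqo1.

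Each slide of the microarrays held 1 KO and 1 WT array, so the differences can also be read within a slide. The median difference over the 39 genes was 0.34, 0.57 and 0.16 on the 3 slides, beside -0.008, 0.33 and -0.03 over all genes tested. The sign was the same on all 3 slides for 26 of the 39, a share that was not counted over all genes. Slide 2, which held WT replicate 2, gave the largest difference for Osgin1, Gsta4, Sod3, Mgst1, Gstm2, Hmox1 and Keap1 among the 14 genes plotted by slide. Without WT replicate 2 the same 6 genes were called, with differences of 1.35 for Gclm, 2.04 for Gsta4, 1.06 for Gstm2, 0.90 for Gstm5, 1.97 for Osgin1 and -1.66 for Nqo1. In that fit 25 of the 39 genes had a positive difference, against 29 with all arrays. Of the 15 at an unadjusted limma p below 0.05 in that fit 11 were higher in KO, against 14 of 15 with all arrays. With slide as a block 2 of the 39 genes were called, Gsta4 and Osgin1, beside 1.8% of all genes.

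**Figure D5:**
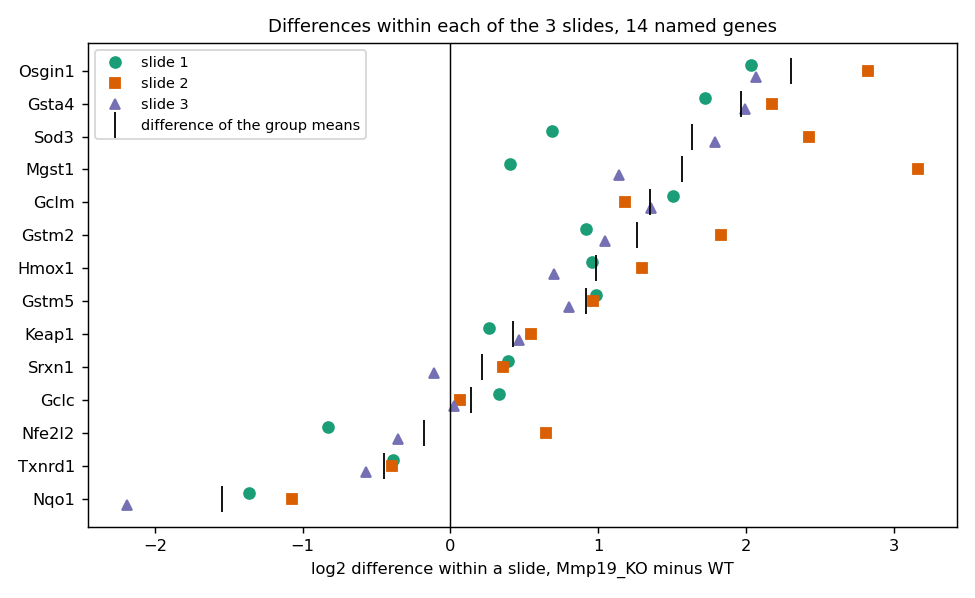
Log2 difference, KO minus WT, on each of the 3 slides (circle, square, triangle) for 14 genes, those called, those with groups that do not overlap and a difference of at least 1, and the regulators and usual NRF2 targets, with a black mark at the difference of the group means. The 6 called genes keep their sign on all 3 slides, Nfe2l2 and Srxn1 do not, and of these 14 Mgst1 has the widest spread, from 0.40 to 3.16.

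Beyond the 39 genes, 107 further genes of the same pathways were listed and 91 could be tested, of which 5 rose and 0 fell, beside 3.3% of all genes called higher and 1.49% called lower. The 4 that rose among 26 tested genes of conjugation and export were Gstk1, Gstm4 and Gstt2, given above, and Htatip2, an oxidoreductase, with 1.38 ± 0.24 (adjusted p = 0.0288; 0.0657 with slide as a block). Idh1, the cytosolic isocitrate dehydrogenase that makes NADPH, was the 1 that rose among 12 tested genes of NADPH supply. It had 1.11, 1.29 and 1.4 in KO, against 0.04, -0.34 and 0.07 in WT. The groups did not overlap, with a difference of 1.34 ± 0.21 (adjusted p = 0.0236; 0.0712 with slide as a block). No gene passed among 14 partners and turnover factors of NRF2, where Btrc, part of a ubiquitin ligase, had the smallest p (0.76 ± 0.25, adjusted p = 0.153). None passed among 12 genes of cystine and glutathione handling (Ggct, -1.03 ± 0.48, adjusted p = 0.278) or 14 relatives of thioredoxin (Msrb2, 0.62 ± 0.20, adjusted p = 0.140). The same held for 9 genes of iron and metal handling (Blvra, 0.78 ± 0.20, adjusted p = 0.0827) and 4 of superoxide production (Cyba, 0.85 ± 0.21, adjusted p = 0.0762). At an unadjusted p below 0.05 these 5 lists held 2, 0, 3, 4 and 1 genes, of 14, 12, 14, 9 and 4 tested, beside 21.8% of all genes. Of the 4 in iron and metal handling 3 were lower in KO, and those of the other lists were higher. Over all genes 14.4% were higher and 7.38% lower. Slc7a11, the cystine transporter and a usual NRF2 target, was above background on 1 KO and 2 WT arrays and was not tested.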

How the data were processed

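Gene expression was measured in 6 cultures of mouse lung fibroblasts, 3 Mmp19_KO and 3 WT, with groups and replicate numbers taken from the sample titles. The deposited scanner tables hold spot intensities with background subtracted: per the file headers they were made with Agilent Feature Extraction 10.7.3.1 on a design annotated on mm9, while the submitters' processing notes name version 9.1. A table of log2 values that the authors deposited (35844 probes, column medians 5.51 to 5.76), with a scaling that the sources used here do not state, served as an alternative.

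Control spots and spots marked as outliers were left out and spots of 1 probe averaged, which gave 55681 probes from 59305 spots. Each array's 75th percentile of log2 intensity was subtracted. A probe entered the test (24217 did, 43.5%) if every KO array or every WT array showed it well above background. Groups were compared by a two-sided limma test (limma 3.58.1, R 4.3.3) with Benjamini-Hochberg adjustment. No spot was saturated. Probes were named by RefSeq accession through GRCm38.p6 (26413, 47.4%), and the brightest tested probe stood for a gene. The number of arrays limits the precision, and an exact permutation test of 3 against 3 cannot go below 0.1. The procedure was tested on simulated data.

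Values on every array are given for members past the threshold, for those with a difference of at least 1 and groups that do not overlap, and for Nfe2l2, Keap1, Nqo1, Hmox1, Gclc, Gclm, Txnrd1 and Srxn1; Sod2 and the transferase subset were added after their values were seen. From each further pathway list the genes past the threshold, or the 1 with the smallest p, are named. Members, lists and tests were chosen with earlier results of these data known. Arrays of 1 number shared a slide; within slides, deviations from group means had correlations of 0.096, -0.020 and 0.210, so they were not treated as pairs, and slide served as a batch.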

Additional observations from a re-analysis of the deposited data

How the results depend on the processing

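Under 16 alternatives, the 6 called antioxidant genes kept their direction in all 16, and passed the threshold in 12 for Gsta4 and Osgin1, 9 for Gclm, Gstm2 and Nqo1, and 5 for Gstm5. The count of 6 antioxidant genes became 0 without a filter on dim probes (11 at an unadjusted p below 0.05), 2 with the replicate block, which is also the slide block (13), and 15 with array weights, 12 higher and 3 lower. Leaving out 1 array gave 0 to 6 genes, with 0 without KO replicate 3 or WT replicate 3 (12 and 13 at an unadjusted p below 0.05). The 1124 probes called (697 higher, 427 lower) became 633 with normexp background correction, 113 without the filter, 650 with only probes detected on all arrays, 385 with the replicate block and 5072 with array weights, and 107 to 1716 when 1 array was left out. The median difference of the 39 genes stayed positive, from 0.16 with the authors' values to 0.42 with the mean of all probes of a gene. The median of all genes moved from 0.08 to -0.03 with the 75th percentile over detected probes, where the calls split into 607 higher and 562 lower, and to -0.05 with the authors' values. Gclc reversed to -0.04 without KO replicate 1 and to -0.10 without WT replicate 2, and Nfe2l2, from -0.51 to 0.0514 over the fits that left out 1 array, was positive only without WT replicate 1; the cause was not tested. Of 224 comparisons of the 14 genes with an alternative, 176 kept direction and side of the threshold, 40 lost the threshold, 5 gained it and 3 changed sign. Normexp ran on median signals, since no mean signal was used here.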

Other observations

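Genes of metal handling and of glutathione use that the rule did not name were looked at after their values were seen. The metallothioneins Mt1 and Mt2, small metal-binding proteins that also take up oxidants, were lower in KO than in WT without overlap of the groups, with differences of -0.74 and -0.82, and neither passed the test (adjusted p = 0.11 and 0.17). Tfrc, the transferrin receptor, differed by -0.97 with overlapping groups (adjusted p = 0.21). Nqo2, the relative of Nqo1, had a difference of -0.69 without overlap (adjusted p = 0.18), beside -1.54 for Nqo1, which was called. Gstm3, a further mu-class transferase, differed by 1.58 without overlap (adjusted p = 0.091).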
